A study of Glycine max with 18 samples.

Results

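The transcripts of 3 evening complex genes of soybean were followed over a day of constant light: *J* (Glyma.04G050200), a gene for the scaffold protein ELF3, and the genes for its DNA-binding partners, *LUX1* (Glyma.12G060200) and *LUX2* (Glyma.11G136600). They were chosen by these identifiers from the 55589 annotated genes listed for each library, and the names follow the paper and the names in use for these genes. In Gmax_Wm82_a2_v1 coordinates, *J* lies on chromosome 4 from 4075901 to 4081260, *LUX1* on chromosome 12 from 4345126 to 4348039 and *LUX2* on chromosome 11 from 10366710 to 10369847, each on the minus strand. The coordinates span the whole gene, and 0 other annotated genes overlap any of the 3.

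The evening complex is a repressor of the plant circadian clock. In Arabidopsis, ELF3 holds the complex together, ELF4 binds ELF3, and LUX, a transcription factor with a MYB-like domain of the GARP type, brings the complex to DNA. The complex acts around dusk and in the early night on genes such as *PRR9*, *GI*, *PIF4* and *LUX* itself. In soybean, *J* is known as a flowering-time gene: loss of its function gives the long-juvenile trait, with late flowering in short days, and *J* acts upstream of the flowering repressor *E1*.

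Leaves of wild-type Ws82 were sampled at 6 time points, 4 h apart and spanning 20 h, with the biological replicates L, M and R at each, 18 RNA-seq libraries in all. The libraries share the genotype and the free-running treatment, so that time is the only labelled difference between groups. Time points are named ZT24 to ZT44, whereas the labels count them from the start of sampling. The paper and the growth protocol describe seedlings raised in short days before a day in constant light, while the series' design text gives equal light and dark, and the deposited extraction text speaks of rice.

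Levels are given in TPM, a measure of relative transcript abundance that corrects for transcript length and library size, in which levels of different genes can be compared. Aligned sequence per library was 3.11 to 7.24 Gb, and the libraries of ZT44 were the shallowest with 3.11 to 3.53 Gb. In ZT32 R, 227701 assembled loci had no strand, against 803 to 35008 in the other 17 libraries. The TPM of its annotated genes also added up to the lowest percentage of 1000000, 51.3% against 56.2 to 78.6%. The assembled loci came to 1000000 TPM by themselves in each library, so annotated genes and assembled loci do not divide a common total. The percentage for annotated genes was next lowest in ZT36 L, 56.2%. All 3 genes had the lowest TPM of their time point in ZT32 R and in ZT36 L, and the highest in ZT24 M, ZT36 M and ZT40 M. The part of library make-up in these values was not tested.

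Of the annotated genes, 24620 had a mean of at least 1 TPM at any time point and were tested, the 3 among them. *J* and *LUX2* reached this mean at 5 of the 6 time points. *LUX1* reached it at 2, ZT32 and ZT36, so that it entered the tests only through its high time points. On the log2(TPM + 1) scale, each of the 3 genes differed over the 6 time points (limma moderated F-test, adjusted p = 1.3e-12 for *J*, 1.6e-10 for *LUX2* and 3.0e-06 for *LUX1*). This call was common, as 76.3% of all genes tested passed, so that passing sets none of the 3 apart. The size of the change was less common: the range between highest and lowest time point was larger in *J* than in 98.8% of the genes tested, in *LUX2* than in 96.0% and in *LUX1* than in 65.0%. The place of *LUX1* depended on the scale, as its range was 1.26 with the pseudocount of 1, 3.69 with a pseudocount of 0.1 and 2.95 without the 100 highest genes, which placed it above 94.5% and 95.4% of genes. In leaf tissue, fewer cells with a transcript and less of it per cell cannot be told apart.

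*J*, the scaffold gene, had the highest TPM of the 3 in 16 of 18 libraries, and its own maximum at ZT36. At ZT36 *J* had 19.4, 27.8 and 23.4 TPM in L, M and R, and at ZT28 it had 0.739, 0.516 and 0.379 TPM. The values at the other time points were 2.97, 4.58 and 3.28 TPM at ZT24, 3.78, 3.73 and 1.54 at ZT32, 13.1, 18.1 and 14.4 at ZT40, and 11.03, 7.90 and 9.64 at ZT44. The libraries of ZT36 lay above all others and those of ZT28 below all others, in each of L, M and R.

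The means of *J* fell into a high part, ZT36 to ZT44, and a low part, ZT24 to ZT32. The highest mean was 23.5 ± 4.20 TPM (SD, n = 3), and the lowest 0.544 ± 0.182 TPM, a 43.2-fold difference on the line of the annotated gene. On the log2 scale ZT36 exceeded ZT28 by 3.98 (standard error 0.27, limma contrast, adjusted p = 1.0e-12), a contrast in which 38.5% of all genes were called higher. The median of all genes tested also rose in this contrast, by 0.41, and relative to it *J* rose by 3.58. ZT36 and ZT28 were taken as the highest and lowest of the means of *J*, a choice that the adjustment over genes does not cover.

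Ordered by level, the time points of *J* ran ZT36, ZT40, ZT44, ZT24, ZT32, ZT28. ZT36 and ZT40 did not overlap between libraries, yet their difference of 0.60 did not pass the limma contrast (adjusted p = 0.20). It passed with quantile normalization (0.82, adjusted p = 0.0015), with the annotated genes rescaled to the same total (0.81, adjusted p = 0.027) and with FPKM (0.77, adjusted p = 0.03). ZT40 and ZT44 did not overlap either, and their difference of -0.62 did not pass (adjusted p = 0.095), though it passed without ZT32 R (adjusted p = 0.031).

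*J* was lower at ZT24 than at ZT44 by 1.20 on the log2 scale (limma contrast, adjusted p = 0.0028, against 4.72% of all genes called lower). ZT24 and ZT32 were not told apart (0.24, adjusted p = 0.51), and the sign of that difference turned with quantile normalization (-0.15), without the 100 highest genes (-0.13) and without ZT32 R (-0.060). From ZT24 to ZT28 *J* fell by 1.57 (adjusted p = 9.1e-05, against 9.29% of all genes called lower). From ZT28 to ZT32 it rose by 1.33 (adjusted p = 0.001, against 2.48% called higher), and from ZT32 to ZT36 by 2.66 (adjusted p = 7.0e-09, against 47.6% called higher), or by 2.13 relative to the median of all genes.

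**Figure D1:**
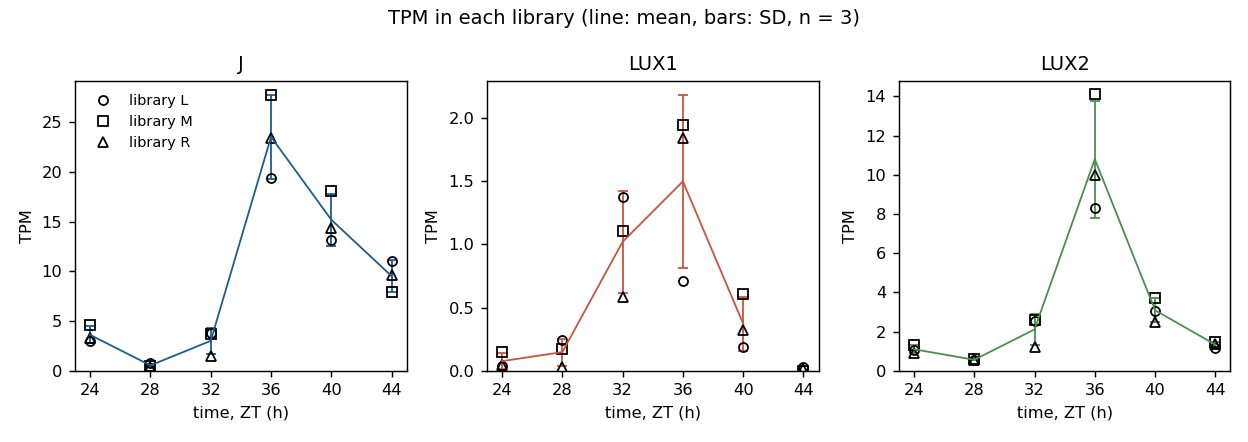
TPM of *J*, *LUX1* and *LUX2* (vertical axes, each with its own scale from 0) against time (ZT, h), with a symbol for each library L, M and R, the line at the mean and bars of 1 SD (n = 3, lower bars stopped at 0, no mean drawn for *LUX1* at ZT44). The maxima of *J* and *LUX2* are at ZT36 in L, M and R, while *LUX1* is highest at ZT32 in L.

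*LUX2*, a gene for a DNA-binding partner, had its maximum and minimum at the same time points as *J*, but a narrower peak. *LUX2* had 8.30, 14.1 and 9.99 TPM at ZT36 in L, M and R, and 0.550, 0.579 and 0.553 TPM at ZT28. Its values were 1.08, 1.31 and 0.910 TPM at ZT24, 2.53, 2.59 and 1.21 at ZT32, 3.04, 3.71 and 2.51 at ZT40, and 1.16, 1.48 and 1.36 at ZT44. ZT36 stood alone, since its lowest library was above the highest library of any other time point.

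Between ZT28 and ZT36 the mean of *LUX2* went from 0.561 ± 0.0159 to 10.8 ± 2.98 TPM (SD, n = 3), a 19.3-fold difference. On the log2 scale this was a rise of 2.89 (standard error 0.23, limma contrast, adjusted p = 3.5e-11), or 2.48 relative to the median of all genes. *LUX2* was higher at ZT36 than at ZT40 by 1.51 (adjusted p = 3.5e-05), where only 2.45% of all genes were called higher. It was also higher at ZT36 than at ZT32 by 1.93 (adjusted p = 1.3e-07, against 47.6% of all genes called higher), or by 1.40 relative to the median of all genes.

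Below the maximum, the order of *LUX2* was ZT40, ZT32, ZT44, ZT24, ZT28, and no neighbouring pair in it passed the limma contrast. The differences were -0.42 for ZT32 minus ZT40 (adjusted p = 0.11), 0.38 for ZT32 minus ZT44 (adjusted p = 0.19), -0.15 for ZT24 minus ZT44 (adjusted p = 0.76) and -0.42 for ZT28 minus ZT24 (adjusted p = 0.25). Several of these moved with the scaling: ZT32 minus ZT40 turned to 0.27 with quantile normalization, ZT32 minus ZT44 passed with it (0.73, adjusted p = 0.00036) and also without ZT32 R (0.61, adjusted p = 0.037), and ZT28 minus ZT24 passed without the 100 highest genes (-0.66, adjusted p = 0.048). Between ZT40 and ZT44 *LUX2* fell by 0.80 (adjusted p = 0.014, against 16.3% of all genes called lower), a call that was lost without ZT40 M (adjusted p = 0.085). The median of all genes fell by 0.31 in that contrast. From ZT28 to ZT32 it rose by 0.96 (adjusted p = 0.0056).

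*LUX1*, the other LUX gene, was the least abundant on the lines of the annotated genes, with a maximum of 1.94 TPM in any library. It had 1.37, 1.11 and 0.580 TPM at ZT32 in L, M and R, 0.710, 1.94 and 1.84 TPM at ZT36, and 0.189, 0.604 and 0.322 TPM at ZT40. At ZT24 it had 0.0343, 0.151 and 0.0434 TPM, at ZT28 0.243, 0.168 and 0.0320, and at ZT44 it was listed at 0.0334, 0 and 0.0108. The libraries of ZT32 and ZT36 overlapped, as did those of ZT32 and ZT40. All libraries of ZT36 and all but 1 of ZT32 were above every library of ZT24, ZT28, ZT40 and ZT44, the exception being ZT32 R, which lay below ZT40 M.

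The highest mean of *LUX1*, that of ZT36, was 1.50 ± 0.684 TPM (SD, n = 3), and the next, that of ZT32, was 1.02 ± 0.403 TPM. With a value listed at 0 and the depth of ZT44 low, no fold against ZT44 is given. ZT36 exceeded ZT28 by 1.08 on the log2 scale (standard error 0.19, limma contrast, adjusted p = 4.1e-05), or by 0.68 relative to the median of all genes. ZT36 minus ZT32 was 0.29 and did not pass (adjusted p = 0.21), in a contrast where the median of all genes was 0.53. It turned to -0.15 with quantile normalization and passed without ZT36 L (0.54, adjusted p = 0.016). At this level the log2(TPM + 1) scale compresses differences, so that sizes for *LUX1* are understated beside those of *J* and *LUX2*.

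*LUX1* rose from ZT28 to ZT32 by 0.80 (limma contrast, adjusted p = 0.006, against 2.48% of all genes called higher), a call lost without ZT28 R (0.72, adjusted p = 0.052). It was higher at ZT32 than at ZT40 by 0.55 (adjusted p = 0.017), a contrast in which the median of all genes was -0.61 and 5.6% were called higher, but this was lost without ZT32 L (adjusted p = 0.089) and without ZT40 L (adjusted p = 0.075). Between ZT36 and ZT40 *LUX1* differed by 0.83 (adjusted p = 0.0046), and with a pseudocount of 0.1 by 1.74 (adjusted p = 0.054). ZT40, ZT28, ZT24 and ZT44, its 4 lowest time points in this order, were not told apart from their neighbours (adjusted p = 0.28, 0.82 and 0.86). The fall from ZT40 to ZT44, -0.42 (adjusted p = 0.12), passed with a pseudocount of 0.1 (-1.95, adjusted p = 0.016) and without the 100 highest genes (-1.29, adjusted p = 0.027).

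Set on a common scale, the 3 genes differed in the flanks around ZT36. On the rising side, at ZT32, *LUX1* had reached 68.1% of its highest mean, *LUX2* 19.5% and *J* 12.8%. On the falling side, at ZT40, *J* kept 64.6% of its highest mean, against 28.6% for *LUX2* and 24.8% for *LUX1*. At ZT44 *J* was at 40.5% and *LUX2* at 12.3%, and no share is given for *LUX1*, of which ZT44 M was listed at 0. At ZT24 the shares were 15.3% for *J*, 10.2% for *LUX2* and 5.09% for *LUX1*. By these means *J* fell latest and *LUX1* rose earliest. *LUX2* lay between them, close to *J* on the rising side and close to *LUX1* at ZT40. The place of *LUX2* against *J* on the rising side depends on the line of the annotated gene. With the loci that *StringTie* assembled from the reads, the means of *J* were 5.16 TPM at ZT32 and 23.9 TPM at ZT36. Those of *LUX2* were 2.11 and 10.8 TPM, so that *J* had then reached the larger share. The loci at *LUX1* had 3.07, 1.11 and 1.43 TPM at ZT32 in L, M and R, and 0.947, 1.94 and 1.84 TPM at ZT36. Its share at ZT32, and its maximum at ZT36, therefore depend on the line as well.

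**Figure D2:**
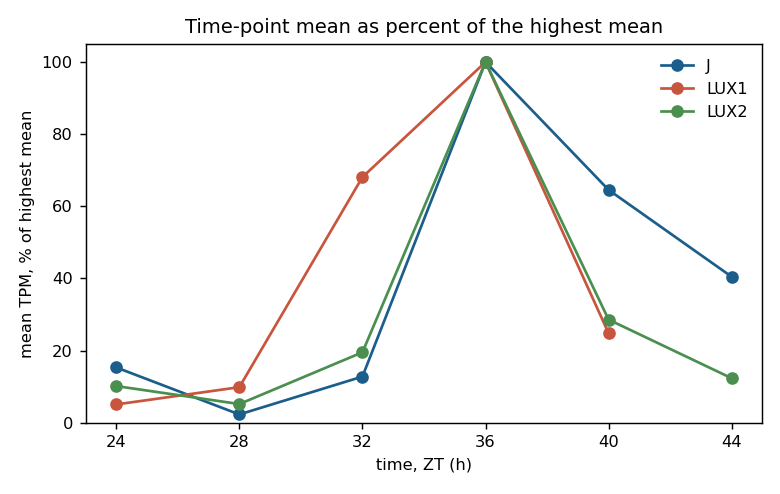
Mean TPM at each time point as a percentage of the gene's highest mean (vertical axis) against time (ZT, h), for *J*, *LUX1* and *LUX2* (n = 3 libraries a point, no error drawn, *LUX1* not drawn at ZT44). All 3 lines meet 100% at ZT36, and *LUX1* leads at ZT32 with 68.1% and *J* at ZT44 with 40.5%.

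A cosine with a period fixed at 24 h gave the same order of timing. Its peak was at 34.7 h (standard error 0.549) for *LUX1*, 37.0 h (0.528) for *LUX2* and 39.4 h (0.365) for *J*. The cosine passed the test for each (limma, adjusted p = 1.9e-05, 1.1e-05 and 5.5e-08), as it did for 64.7% of all genes. It took 89.6%, 76.3% and 88.5% of the variance of the 6 means of *LUX1*, *LUX2* and *J*, so that it described the narrow peak of *LUX2* least well. The fitted range from trough to crest was 3.58 on the log2 scale for *J*, 2.30 for *LUX2* and 1.26 for *LUX1*. The order of the LUX genes turned with a pseudocount of 0.1, which gave 4.56, 3.20 and 3.71, and without the 100 highest genes, which gave 4.25, 3.11 and 3.17. By its fitted range, *LUX1* was therefore not placed against *LUX2*, while *J* had the largest range of the 3 in each of these settings. Each of them adds a pseudocount, and the lead of *J* over *LUX1* narrowed with the smaller one. The log2 ranges of *J* and *LUX1* were not compared without a pseudocount. No cosine was fitted to the assembled loci, by which the fold between highest and lowest mean was 13.1 for *J* and 12.7 for *LUX2*.

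*J* peaked 2.43 h after *LUX2* (95% interval 1.57 to 3.29 h) and 4.69 h after *LUX1* (3.43 to 5.94 h), and *LUX2* peaked 2.25 h after *LUX1* (1.15 to 3.36 h). Each of these 3 intervals lay above 0, and each still did under every alternative in which both genes were tested. With a cosine of untransformed TPM the differences were smaller, 1.98 h, 3.72 h and 1.73 h, the last with an interval from 0.232 to 3.23 h. On the lines of the annotated genes, all 3 genes had their highest mean at ZT36, so that each of these differences describes the shape of the curves. The differences from *LUX2* are also shorter than the 4 h between samples. Sampling over 20 h does not give the period.

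The balance between scaffold and partner was read as the ratio of their TPM within each library, which does not depend on the library's scaling. *J* over *LUX2* was 2.76, 3.49 and 3.60 at ZT24 and 1.34, 0.891 and 0.685 at ZT28 in L, M and R. It was 1.49, 1.44 and 1.27 at ZT32, and 2.33, 1.97 and 2.35 at ZT36. At ZT40 it was 4.31, 4.88 and 5.71, and at ZT44 it was 9.49, 5.36 and 7.08. *J* exceeded *LUX2* in 16 of 18 libraries, the exceptions being ZT28 M and ZT28 R. Libraries of neighbouring time points overlapped between ZT28 and ZT32 and between ZT40 and ZT44, but not between ZT24 and ZT28 or between ZT32, ZT36 and ZT40. The low ratios of ZT28 and ZT32 depend on the line of the table. With the loci that *StringTie* assembled from the reads in place of the annotated genes, the ratio was 2.53, 2.32 and 1.19 at ZT28 and 2.26, 2.49 and 2.76 at ZT32, *J* exceeded *LUX2* in 18 of 18 libraries, and ZT28, ZT32 and ZT36 overlapped. The ratios of ZT40 (4.40 to 5.25) and ZT44 (2.61 to 9.49) still lay above those of ZT36 (1.98 to 2.41).

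**Figure D3:**
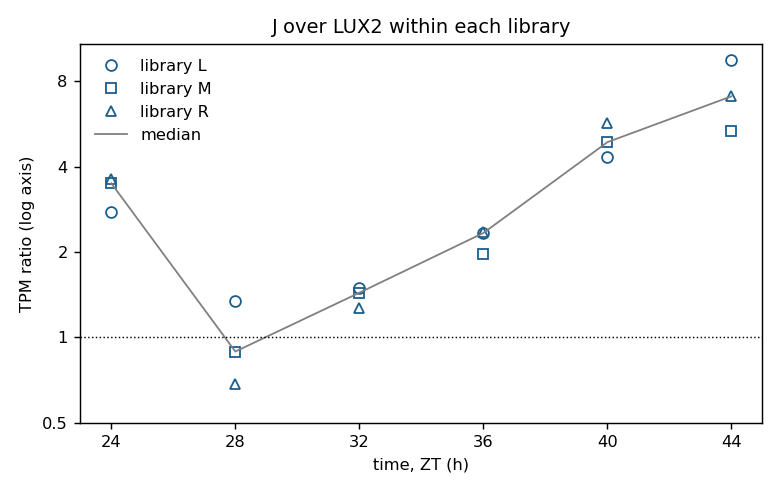
TPM of *J* divided by TPM of *LUX2* in each library (vertical log axis) against time (ZT, h), with a symbol for each library, a line through the medians and a dotted line at equal TPM. The ratio is lowest at ZT28, with a median of 0.891, and highest at ZT44, with a median of 7.08.

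The difference of *LUX2* from *J* on the log2(TPM + 1) scale changed over the 6 time points (permutation test of the libraries over time points, 100000 draws, p = 1e-05, the smallest these draws can give). The same smallest p was reached by *LUX1* against *J* and by *LUX1* against *LUX2*, the 3 pairs tested. In limma the difference of *LUX1* from *LUX2* passed (adjusted p = 2.5e-08), as did 99.9% of all other genes set against *LUX2*. The difference of *LUX2* from *J* passed as well (adjusted p = 1.2e-11), as did 100% of all other genes set against *J*, so that a change relative to *J* is not particular to *LUX2*. Its direction after the peak was less common. From ZT36 to ZT44 *LUX2* fell relative to *J* by 1.09 (standard error 0.22, limma, adjusted p = 6.5e-05), as did 1.64% of genes, whereas 79.6% rose relative to *J*. From ZT28 to ZT36, on the lines of the annotated genes, *LUX2* also fell relative to *J*, by 1.09 (adjusted p = 1.7e-05), as did 99.6% of genes. These 2 contrasts were added after the values had been seen.

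As levels, *LUX2* lay below *J* by 1.12 at ZT24, 1.07 at ZT36, 1.98 at ZT40 and 2.16 at ZT44 on the log2(TPM + 1) scale (limma, adjusted p = 7.7e-08, 6.8e-08, 4.4e-14 and 1.0e-14). At these time points 55.5%, 91.8%, 84.9% and 80.5% of all genes were below *J*. At ZT28 the 2 genes were not told apart (0.02, standard error 0.15, adjusted p = 0.91), a time point at which 69.8% of all genes were above *J* and 1.08% below it. At ZT32 *LUX2* was lower by 0.34 (adjusted p = 0.04, against 59.9% of all genes), which was lost with a pseudocount of 0.1 (adjusted p = 0.073), without ZT32 L (adjusted p = 0.16) and without ZT32 M (adjusted p = 0.14).

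On the lines of the annotated genes, *LUX1* had less TPM than *J* and less than *LUX2* in 18 of 18 libraries. By the assembled loci, *LUX1* exceeded *LUX2* in ZT32 L (3.07 against 2.53 TPM) and ZT32 R (1.43 against 1.21). In ZT32 M it did not (1.11 against 2.59). Over ZT32, ZT36 and ZT40, *J* over *LUX1* was smallest at ZT32, 2.76, 3.36 and 2.65 in L, M and R, and was 27.3, 14.3 and 12.8 at ZT36 and 69.5, 30.0 and 44.6 at ZT40. *LUX2* over *LUX1* was 1.85, 2.34 and 2.08 at ZT32, against 11.7, 7.25 and 5.43 at ZT36. The ratios of ZT32 lay below all those of ZT36 in both cases. On the log2(TPM + 1) scale *LUX1* lay below *J* at every time point, by between 0.43 at ZT28 (limma, adjusted p = 0.032, against 1.08% of all genes below *J*) and 3.56 at ZT40 (adjusted p = 4.1e-18). It lay below *LUX2* by between 0.45 at ZT28 (adjusted p = 0.011, against 1.97% of all genes) and 2.25 at ZT36 (adjusted p = 2.1e-14, against 80.3%). The call against *J* at ZT28 was lost without any of its 3 libraries (adjusted p = 0.081 to 0.087), and that against *LUX2* without ZT28 R (adjusted p = 0.094). Where the gaps were smallest and largest depended on the pseudocount. With 0.1 they were -1.44 at ZT32 and -6.39 at ZT44 relative to *J*, and -0.98 at ZT32 and -3.65 at ZT44 relative to *LUX2*. No ratios to *LUX1* are given for ZT24, ZT28 and ZT44, where *LUX1* was under 0.25 TPM in every library, and the ratios of ZT40 L also rest on a low value, 0.189 TPM. *LUX1* and *LUX2* are close paralogs, and to what extent the quantification divided reads between them was not measured.

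Besides annotated genes, the deposited tables list loci that *StringTie* assembled from each library's reads. A locus overlapping *J* was assembled in 18 of 18 libraries and one overlapping *LUX2* in 18 of 18, with the exact bounds of the annotated gene in 10 and 15 of them. A locus at *LUX1* was assembled in 9 libraries, namely all those of ZT32, ZT36 and ZT40 and none of ZT24, ZT28 or ZT44, with exact bounds in 3. *J* was assembled in 3 pieces in ZT28 L and ZT28 M, the time point of its lowest TPM. The TPM of these pieces added up to 2.35 and 2.49, against 0.739 and 0.516 on the line of the annotated gene. At ZT32, where the bounds also differed from the annotation, the locus had 5.71, 6.45 and 3.33 TPM in L, M and R, against 3.78, 3.73 and 1.54. With the assembled loci in place of the annotated gene, the lowest mean of *J* was 1.83 TPM, still at ZT28, and its fold between highest and lowest mean 13.1 in place of 43.2. For *LUX2* that fold was 12.7 in place of 19.3. TPM counts each piece over its own length, so a sum over pieces is not the level of the whole gene, and which line is nearer to it was not tested. None of these loci was on the opposite strand or without a strand. Average coverage per base was 2.78 to 182 for *J*, 3.28 to 91.5 for *LUX2* and 0 to 12.1 for *LUX1*.

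Other clock genes place the 3 in the day. The list of 10 genes was limited to those that could be matched to an identifier: *LHY1a*, *LHY1b*, *LHY2a* and *LHY2b*, MYB-like repressors of the morning, *PRR5b*, *PRR5d* and *TOC1c*, pseudo-response regulators, *COR28b*, a cold-regulated gene, *RVE2d*, a gene for a MYB-like factor of the REVEILLE family, and *PIF4*, a gene for a growth-promoting bHLH factor that the evening complex represses in Arabidopsis. All 10 passed the F-test and all 10 passed the cosine, against 76.3% and 64.7% of all genes. From ZT28 to ZT36, 3 of the 10 rose, 6 fell and *PRR5b* did not pass (0.19, limma, adjusted p = 0.57), where 38.5% of all genes were called higher and 11.8% lower. Those that rose with *J* and the LUX genes were *TOC1c* by 1.58, *COR28b* by 1.33 and *RVE2d* by 3.08 on the log2 scale.

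The cosine peaks of *TOC1c* (37.4 h, standard error 0.471) and *COR28b* (37.2 h, 0.454) lay between those of *LUX2* and *J*. *PRR5b* (32.1 h, 0.463) came before *LUX1*, and *RVE2d* (41.9 h, 0.197) after *J*. The 4 *LHY* genes peaked from 46.9 to 47.5 h, and *PRR5d* (26.8 h) and *PIF4* (25.0 h) had their peaks on the side of the day where *J* and the LUX genes were low. *PIF4* had its lowest mean, 1.12 TPM, at ZT36, as did the 4 *LHY* genes and *PRR5d*. Differences between the peaks of the list and those of the 3 genes were not tested, and how far reads were divided among the *LHY* paralogs was not measured.

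**Figure D4:**
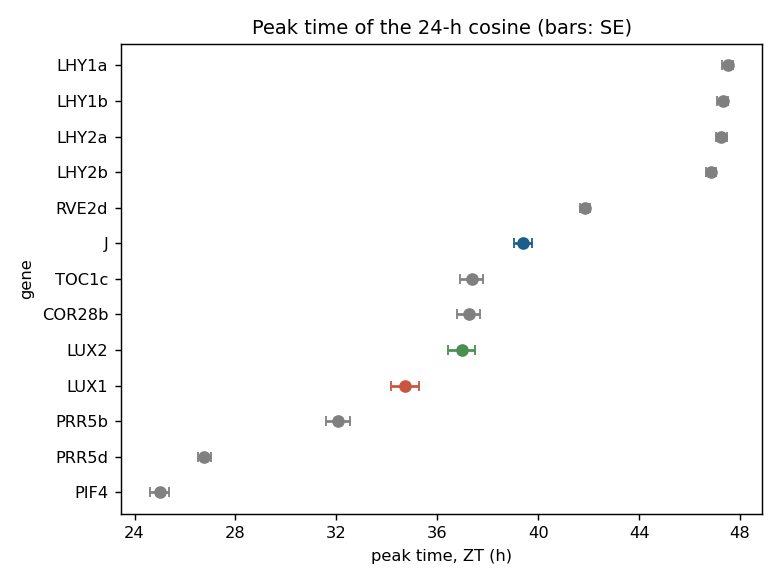
Peak time of the fitted 24-h cosine (horizontal axis, ZT in h, points with bars of 1 standard error) for *J*, *LUX1*, *LUX2* and the 10 listed clock genes, in order of peak time. *LUX1* is at 34.7 h, *LUX2* at 37.0 h and *J* at 39.4 h, with *TOC1c* and *COR28b* at 37.4 and 37.2 h.

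The likeness of patterns was described by Pearson's r of log2(TPM + 1) over the 18 libraries, which share their time points and scaling. Between *J* and *LUX2* r was 0.82, between *LUX1* and *LUX2* 0.80, and between *J* and *LUX1* 0.42. Of the 24619 genes ranked against *J*, 2256 were more like *J* than *LUX2* was, and 13987 were more like *J* than *LUX1* was. Against *LUX1*, 230 genes were more like *LUX1* than *LUX2* was. On the clock list, *LUX2* was most like *TOC1c* (0.90) and *COR28b* (0.89), *J* most like *TOC1c* (0.83), and *LUX1* most like *TOC1c* (0.71). *J* ran most opposite to *PRR5d* (-0.90), *LUX1* to *LHY2b* (-0.84) and *LUX2* to *PIF4* (-0.84).

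Among all genes tested except the 3, the one most like *J* was Glyma.03G058000 (r = 0.97, n = 18 libraries), which had its highest mean, 15.4 TPM, at ZT40 and its lowest, 1.90 TPM, at ZT28. The one most like *LUX2* was Glyma.10G283800 (r = 0.97), with 10.9 TPM at ZT36 and 0.358 TPM at ZT28. The one most like *LUX1* was Glyma.16G163200 (r = 0.96), with 8.32 TPM at ZT36 and 0.0502 TPM at ZT24. An r above 0.9 was shared with *J* by 325 genes, with *LUX2* by 133 and with *LUX1* by 50. With Spearman's rho or with the 6 means, other genes took the nearest place for each of the 3.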

How the data were processed

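RNA-seq libraries of wild-type Ws82 leaf were analysed, 18 in all. Ribosomal RNA was removed before sequencing. The authors trimmed reads with *Trimmomatic*, used *HISAT2* 2.2.1 for alignment to Gmax_Wm82_a2_v1 and *StringTie* for quantification. Per the file headers, each table holds coverage, FPKM and TPM for annotated genes and assembled loci, and no read numbers. Coverage with FPKM gave the aligned sequence per library. No count model or counting interval was therefore used. The 2 lines of a gene that 11 libraries list more than once were added up.

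TPM was used as deposited, as log2(TPM + 1). Models were fitted in R 4.3.3 with limma 3.58.1 (eBayes, trended prior), over all 24620 genes whose mean reached 1 TPM at any time point, with Benjamini-Hochberg adjustment over the whole table and a threshold of 0.05. The F-test over time points had 5 degrees of freedom and the 24-h cosine 2. For the contrasts, the highest and lowest time point of each gene were read from the same means, and the adjustment does not cover that choice. Standard errors of peak times came from the delta method, and those of peak differences from the residuals of both genes in the same libraries. For ratios, the log2 value of *J* (or of *LUX2*) was subtracted from every other gene in each library. All genes then share the error of *J*, so a permutation test was added after seeing the data. Replicates are biological according to the labels. No library was left out, and 0 pairs of libraries were identical.

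The 3 genes, the clock list and the tests were chosen with earlier results of these data known. The genes named are the 3, the clock list and, for each of the 3, the gene with the highest Pearson's r. None of the files' identifiers is in the reference table of 59048 genes, so sequences, promoter motifs, other family members and leaf markers are not used here. The settings varied were the pseudocount (0.1), the expression filter (5 TPM or none), the scaling (quantile normalization, annotated TPM rescaled to 1000000, also without the 100 highest genes), the unit (FPKM), the prior (no trend), a replicate block, the library left out, and the measure of likeness (Spearman's rho, 6 means). The cosine of untransformed TPM and the summed TPM of assembled loci were added after seeing the data. Scripts were tested on simulated data. Figures were made with Python 3.11.15 and matplotlib 3.10.9.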

Additional observations from a re-analysis of the deposited data

How the results depend on the processing

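Of 1967 values under an alternative, for 93 results, 1926 kept the direction and the call or stayed within the spread, 12 lost the call, 16 gained it, and 7 changed sign. The other 6 are means or folds that moved when the assembled loci took the place of the annotated genes, and no tests were run on the assembled loci. The F-test and cosine calls of *J*, *LUX1* and *LUX2* and the order of their peaks kept both in every alternative that tested them. So did the falls of *LUX2* relative to *J* from ZT28 to ZT36 and from ZT36 to ZT44. The assembled loci were not among these alternatives, and with them *J* over *LUX2* overlapped between ZT28 and ZT36. *LUX1* was not tested with the filter of 5 TPM. With quantile normalization the sign changed for *J* ZT24 minus ZT32 (-0.15), *LUX1* ZT36 minus ZT32 (-0.15), *LUX1* ZT24 minus ZT44 (-0.00039) and *LUX2* ZT32 minus ZT40 (0.27), and without the 100 highest genes for *J* ZT24 minus ZT32 (-0.13). With a pseudocount of 0.1, *LUX2* at ZT32 relative to *J* was -0.46 and lost its call. The causes were not tested. With each library left out in turn, the ranges were -0.060 to 0.40 for *J* ZT24 minus ZT32, and relative to *J* -0.45 to -0.40 for *LUX1* at ZT28, -0.054 to 0.12 for *LUX2* at ZT28 and -0.42 to -0.30 for *LUX2* at ZT32. *LUX1* relative to *LUX2* at ZT28 ranged from -0.51 to -0.38. Whether the replicate letters pair the samples was not tested. Over 45 pairs of libraries with the same letter, deviations from the time-point means had r of -0.368 to 0.319. The median r was -0.013, against 0.0023 for pairs with different letters, and 8 of 18 libraries were closest to their own letter. A replicate block left all calls in place (F-test of *J*, adjusted p = 9.7e-13). Low values of *LUX1* rest on few reads, above all at ZT44, and their depth in reads is unknown.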
